A study of Mus musculus with 16 samples.

Results

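The genes described here are 44 interferon-stimulated genes, given as a list of gene names chosen with earlier results of these data known, and 43 of them have a row among the 31053 genes counted in every library (Mx2 was not analysed here). They were measured in immune cells sorted from mouse tumors of 2 transplanted lines, MC38 (a colorectal carcinoma) and Panc02-SIY (a pancreatic adenocarcinoma line carrying the model antigen SIY), grown under the skin of C57BL/6J mice, for which no engineered allele is named. In each line 1 group of tumors was left untreated (NT), and the other was taken 24 h after a single dose of 12 Gy (RT). Live CD45+ cells were sorted after magnetic enrichment and made into 10x Genomics 3′ single-cell libraries, 4 per group and 16 in all. The number of animals per group is given as both 3 and 4 by the sources used here, so the libraries of a group may not each be a separate animal, and p-values then measure the spread between libraries.

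Interferons bind receptors that activate the kinases JAK1 and TYK2, and the signal passes to STAT2 and IRF9, subunits of the factor ISGF3 that binds interferon-stimulated response elements in many promoters of these genes. The products act at many steps against viruses and foreign nucleic acid, and in tumors the same program is read as a sign that immune or tumor cells have sensed interferon, including after irradiation. Type II interferon, IFNG, acts through a separate receptor and raises an overlapping set of genes.

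The libraries held 28678 cell barcodes, of which 20768 were kept. The MC38 libraries shared most of their barcode sequences (9843 barcodes before and 2632 after each sequence was kept only in the MC38 library where it had the most UMIs), and the copies left out had a median of 0.0490 of the UMIs of the barcode kept. In Panc02-SIY 18136 of 18835 barcodes were kept. Total UMI counts kept per library were 1385711 to 8500889 in MC38 and 5275195 to 43708746 in Panc02-SIY. Barcodes were clustered without the members, and clusters were named from marker genes. UMIs were then summed per library over 3 main classes, namely monocyte/macrophage-like (785, 736, 934 and 1285 barcodes in MC38 NT, MC38 RT, Panc02-SIY NT and Panc02-SIY RT), T cell-like (75, 96, 3208 and 2410) and conventional dendritic cell (cDC)-like (62, 55, 226 and 265). Levels are in CPM, the UMIs of a gene scaled to a fixed total of UMIs of the class in a library (counts per 1e6). CPM of a gene given by library or group below were also scaled by TMM, unless stated. Summed levels of the members or of a marker list were not scaled by TMM. Because the sums run over a class, a change in the share of cells that carry a transcript and a change in its amount per cell cannot be told apart.

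The promoters of the listed genes were searched for the letters GAAANNGAAA, the core shared by interferon-stimulated response elements. Both strands were read (TTTCNNTTTC on the other), with overlapping matches counted, in the 250 bases before the RefSeq transcription start (GRCm38.p6). Stretches are shown for Ifit1 and for the 6 members that stand for the roles of the list, only where the window holds a match. The 6 are Isg15, Ifit3, Rsad2, Oasl2, Stat2 and Bst2. The window of Oasl2 holds no match. The stretches that hold the matches are shown because the tested members are listed for their shared response to interferon, with the matched letters in capitals. They lie at chr4:156200845-156200926 (minus strand), chr19:34640755-34640843 (plus), chr19:34583343-34583446 (plus), chr12:26456533-26456602 (minus), chr8:71537557-71537632 (minus) and chr10:128270248-128270315 (plus), all upstream of the annotated start of their gene.
Isg15: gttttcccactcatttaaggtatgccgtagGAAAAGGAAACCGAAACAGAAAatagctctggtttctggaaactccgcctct
Ifit1: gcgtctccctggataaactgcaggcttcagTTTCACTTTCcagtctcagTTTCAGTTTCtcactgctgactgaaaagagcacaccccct
Ifit3: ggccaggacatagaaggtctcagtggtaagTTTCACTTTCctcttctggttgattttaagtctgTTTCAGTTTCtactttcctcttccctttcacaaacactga
Rsad2: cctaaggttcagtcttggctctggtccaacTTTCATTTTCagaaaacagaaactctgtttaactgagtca
Bst2: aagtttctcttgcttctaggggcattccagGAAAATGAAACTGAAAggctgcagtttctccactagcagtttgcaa
Stat2: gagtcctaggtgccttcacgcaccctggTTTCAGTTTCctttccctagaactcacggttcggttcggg
The Isg15 stretch carries 3 overlapping matches, 78 to 66 bases before the start, while Ifit1, Ifit3 and Bst2 carry 2 each and Rsad2 and Stat2 carry 1. Of the 44 listed genes 35 had a promoter in the table, and 13 of these (37.1%) held the letters, against 936 of all 27025 genes with a promoter (3.46%). The other members with a match are Ifit3b, Ifit1bl1, Oas1a, Oas1g, Oas3, Phf11b and Trim30a. A match describes the letters only.

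Members were compared between cell classes within each tumor line, with NT and RT libraries pooled. For MC38 cDC-like sums these were 3 NT and 2 RT libraries. Each SD of such a pooled mean therefore includes any difference between NT and RT. In MC38, where 4 classes had enough barcodes, the highest mean CPM over libraries (without TMM scaling) was in macrophage-like sums for 23 of 43 members, in cDC-like sums for 10, and in T cell-like and NK cell-like sums for 5 each. In Panc02-SIY, where 7 classes were measured, it was in neutrophil-like sums for 25 members, monocyte-like for 7, macrophage-like for 5, cDC-like for 4 and B cell-like for 2. The neutrophil-like, monocyte-like and B cell-like classes had too few barcodes in MC38, so no member could lead there. Among the 4 classes measured in both lines, 23 members were highest in macrophage-like sums in MC38 and 19 in Panc02-SIY, 10 and 20 in cDC-like sums, and 25 of 43 had the same leading class in both lines. These levels are a description, since the classes come from the same cells.

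The Panc02-SIY neutrophil-like sums stood far above the next class for several members. Isg15, a ubiquitin-like protein that is conjugated to other proteins, had 2922 ± 836 CPM there (mean ± SD, n = 8 libraries) against 668 ± 345 in monocyte-like sums. Rsad2 (viperin), which makes a chain-terminating nucleotide, had 1617 ± 597 against 151 ± 91.6, and Oasl2, an oligoadenylate synthetase-like protein, 1044 ± 202 against 220.5 ± 71.7. Each mean lay more than the sum of the SDs above the other. Neutrophil-like barcodes were also the shallowest class, with a mean of 2639.5 UMIs per barcode against 10743 in monocyte-like and 17033 in macrophage-like barcodes of the same line, and CPM is a share of those totals. The part of this depth difference in the levels was not tested. Bst2 (tetherin), a membrane protein that holds budding virus at the cell surface, was highest in macrophage-like sums in MC38 (881 ± 166 CPM against 587 ± 149 in cDC-like sums) and in cDC-like sums in Panc02-SIY (362 ± 96.0). For many members of MC38 the leading class and the next lay within their SD, as for Mx1 with 97.1 ± 124 CPM in NK cell-like and 89.9 ± 45.3 in macrophage-like sums. These SDs run over NT and RT libraries together and are not the spread within a group.

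**Figure D1:**
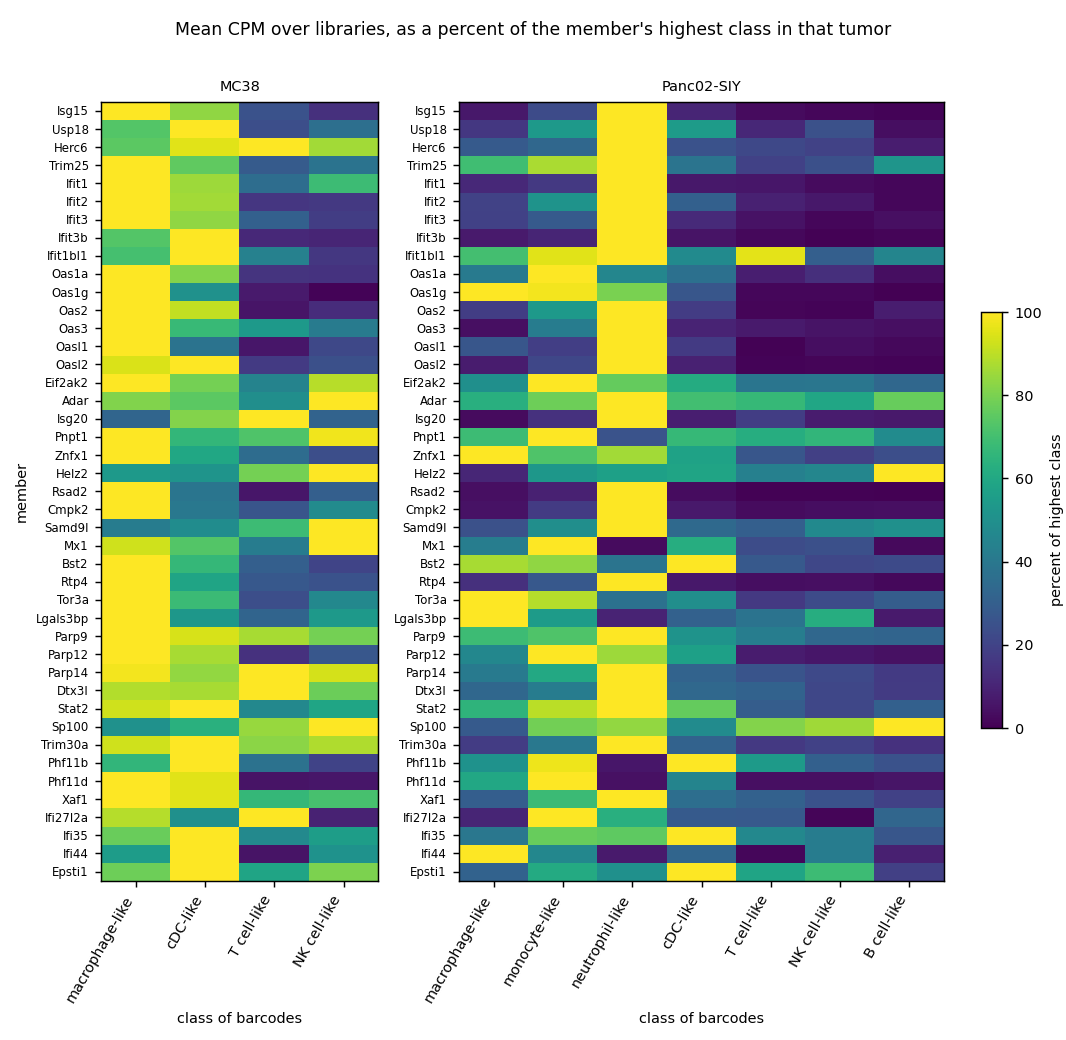
Level of each of the 43 members by cell class, as a percent of the member's highest class mean CPM within a tumor line (NT and RT libraries pooled), with members in rows and classes in columns, 4 classes in MC38 and 7 in Panc02-SIY. In Panc02-SIY the neutrophil-like column is the highest for 25 members, and in MC38 the macrophage-like column is the highest for 23.

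At 24 h after irradiation most members, though not all, were called higher in the monocyte/macrophage-like sums of each line. In MC38, 30 of 43 members passed the test of RT against NT (more than 1.3-fold apart at an adjusted p under 0.1), all of them higher, where 6.11% of the 10491 genes tested were called higher. The members' median log2 fold change was 0.68 (range 0.17 to 1.37) against a median of 0.026 over all genes, and in 35 of 43 every RT library exceeded every NT library, as in 11.5% of all genes tested. In Panc02-SIY, 26 members passed, all higher, where 4.44% of genes were called higher. The median of all 43 was 0.71 (range 0.11 to 1.83) against −0.0034 over all genes, and in 14 of 43 every RT library exceeded every NT library, as in 4.60% of all genes. That count of 26 was 4 in macrophage-like barcodes alone and 2 in a fit to the 2 groups only. Called in both lines were 22 members and in neither 9.

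Of the members of the ISG15 pathway, Isg15 itself is given first. It stood at 471, 679, 670.2 and 543 CPM in the MC38 NT libraries and at 1322, 1465, 1119 and 1109 in the RT libraries (log2 fold change 1.09 ± 0.17 SE, edgeR adjusted p = 0.00129). In Panc02-SIY it stood at 291, 208, 237 and 231 NT and 618, 469, 368 and 656 RT (log2 fold change 1.14 ± 0.17 SE, edgeR adjusted p = 0.00319). In neither line did the groups overlap. Of the 4 members of this pathway, 3 rose in each line, the others being Usp18, which removes ISG15 and restrains receptor signalling, and Herc6, the ligase that attaches ISG15 in mice. Usp18 stood at 15.7 ± 5.46 CPM NT and 34.1 ± 9.20 RT in Panc02-SIY (log2 fold change 1.28 ± 0.31 SE, edgeR adjusted p = 0.0354).

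Of the 5 IFIT genes, whose products bind foreign RNA, 4 rose in MC38 and 2, Ifit1 and Ifit2, in Panc02-SIY. Ifit3 stood at 112, 223, 193 and 170.5 CPM in MC38 NT and 229, 395, 286 and 315 in RT (log2 fold change 0.82 ± 0.26 SE, edgeR adjusted p = 0.0705). Every RT library was above every NT library, although the lowest RT library lay only just above the highest NT library. In Panc02-SIY it stood at 34.3, 46.4, 54.2 and 34.8 NT and 129.6, 61.9, 52.2 and 75.1 RT and did not pass the test (log2 fold change 0.85 ± 0.29 SE, edgeR adjusted p = 0.116), with an RT library inside the NT range. Ifit1 went from 85.3 ± 18.6 to 193 ± 30.4 CPM in MC38 (log2 fold change 1.17 ± 0.17 SE, edgeR adjusted p = 0.00108) and Ifit1bl1 from 14.4 ± 5.02 to 31.6 ± 0.554 (log2 fold change 1.16 ± 0.25 SE, edgeR adjusted p = 0.0105). Ifit2 rose in Panc02-SIY from 45.3 ± 10.3 to 114 ± 46.1 CPM (log2 fold change 1.38 ± 0.26 SE, edgeR adjusted p = 0.0154). Ifit3 and Ifit3b, and Ifit1 and Ifit1bl1, are close copies, so how reads divide between the partners is uncertain.

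Active members of the oligoadenylate synthetase family make a messenger that activates RNase L. Of the 6 family members 3 rose in MC38 and 4 in Panc02-SIY. Oasl2 stood at 133, 182, 155 and 157 CPM in MC38 NT and 329, 313, 254 and 252 in RT (log2 fold change 0.87 ± 0.26 SE, edgeR adjusted p = 0.0593). In Panc02-SIY it stood at 98.4, 78.8, 129 and 48.7 NT and 297, 159, 159.6 and 143 RT (log2 fold change 1.12 ± 0.28 SE, edgeR adjusted p = 0.0384). Neither line overlapped between groups, and the first Panc02-SIY RT library stood far above the other 3. Oas3 rose in Panc02-SIY from 23.0 ± 15.6 to 67.1 ± 26.2 CPM (log2 fold change 1.73 ± 0.44 SE, edgeR adjusted p = 0.0430), again with the first RT library highest. Oas1a and Oas1g are close copies of one another, and their split of reads is uncertain.

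Among the 9 enzymes that act on RNA or nucleotides, 6 rose in MC38 and 5 in Panc02-SIY. Rsad2 had the largest log2 fold change of all members in Panc02-SIY. It stood at 74.8, 169, 202 and 108 CPM in MC38 NT and 535, 402, 233 and 246 in RT (log2 fold change 1.34 ± 0.31 SE, edgeR adjusted p = 0.0208). In Panc02-SIY it went from 41.2, 39.0, 50.2 and 44.2 to 214, 136, 124 and 157 (log2 fold change 1.83 ± 0.34 SE, edgeR adjusted p = 0.0170), and no NT library came near the RT range. Cmpk2, a mitochondrial nucleotide kinase encoded beside Rsad2, rose from 14.5 ± 5.36 to 42.5 ± 25.8 CPM in Panc02-SIY (log2 fold change 1.43 ± 0.40 SE, edgeR adjusted p = 0.0566). Helz2, a helicase, rose from 18.0 ± 5.67 to 46.9 ± 14.6 CPM in MC38 (log2 fold change 1.35 ± 0.35 SE, edgeR adjusted p = 0.0323). Isg20, an exonuclease, and Pnpt1, a mitochondrial exoribonuclease, passed in neither line.

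The GTPase and membrane group held the largest rise in MC38. Mx1, a dynamin-like GTPase that is a pseudogene in C57BL/6J mice but is still transcribed, went from 55.5 ± 5.98 to 145 ± 30.8 CPM (log2 fold change 1.37 ± 0.29 SE, edgeR adjusted p = 0.0123), and 4 of the 5 members tested rose in MC38 and 2 in Panc02-SIY. Bst2 stood at 692, 754, 954 and 693 CPM in MC38 NT and 1041, 1223, 907 and 1219 in RT (log2 fold change 0.50 ± 0.14 SE, edgeR adjusted p = 0.0309), and the groups overlapped by 1 library on each side. In Panc02-SIY it stood at 236, 305, 247 and 290.4 NT and 302, 316, 267 and 388 RT and did not pass (log2 fold change 0.23 ± 0.14 SE, edgeR adjusted p = 0.355).

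In each line 3 of the 4 members of the PARP group rose, namely Parp12 and Parp14, which add single ADP-ribose units to proteins, and Dtx3l, a ubiquitin ligase that works as a complex with Parp9. Of the 6 signalling and nuclear members 5 rose in MC38 and 4 in Panc02-SIY. Stat2, a subunit of ISGF3, stood at 65.3, 74.2, 62.1 and 68.6 CPM in MC38 NT and 121, 121, 119 and 100.4 in RT (log2 fold change 0.77 ± 0.15 SE, edgeR adjusted p = 0.00503). In Panc02-SIY it went from 38.9, 82.7, 74.2 and 52.3 to 120.0, 106, 97.6 and 95.4 (log2 fold change 0.69 ± 0.15 SE, edgeR adjusted p = 0.0237), without overlap in either line. The remaining 4 induced genes gave 2 that rose in MC38 and 3 in Panc02-SIY.

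**Figure D2:**
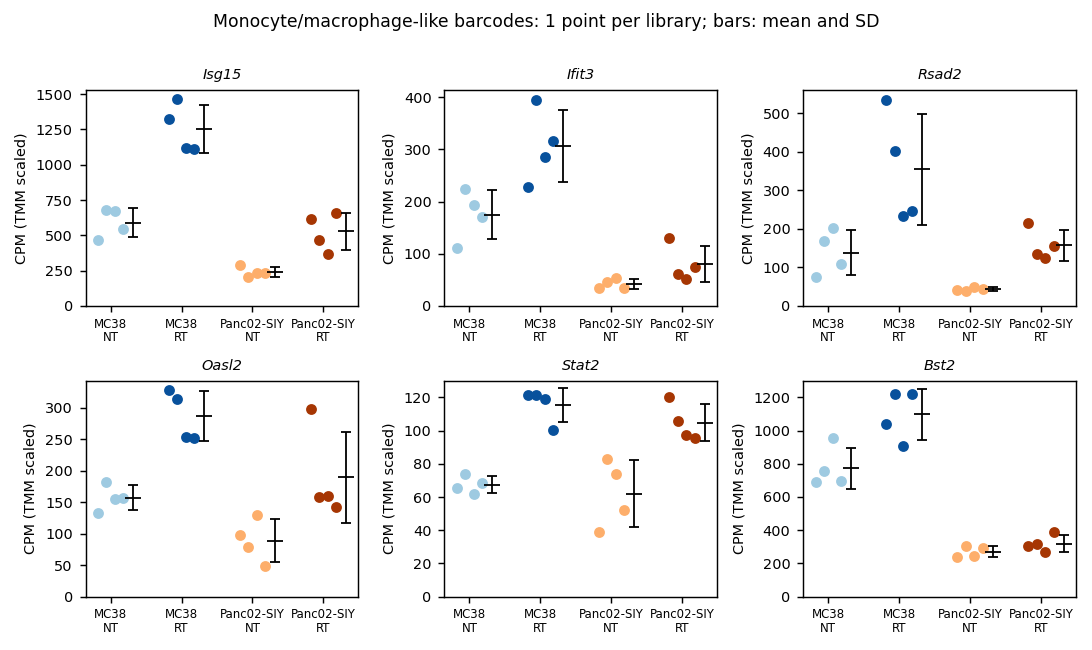
CPM of Isg15, Ifit3, Rsad2, Oasl2, Stat2 and Bst2 in monocyte/macrophage-like sums, 1 point per library with the mean and SD of the 4 libraries of each group. Isg15, Rsad2, Oasl2 and Stat2 separate RT from NT in both lines, and Bst2 separates the lines (692 to 1223 CPM in MC38, 236 to 388 in Panc02-SIY).

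The make-up of the class differed between the Panc02-SIY groups. Monocyte-like barcodes were 20.8% of the class in NT (7.97% to 72.7% by library) and 51.4% in RT (37.4% to 70.6%), against 1.91% and 2.99% in MC38. These shares leave out cluster 1, which stayed unnamed for its low UMIs although 9 of 13 macrophage markers were raised. It held 1342 barcodes in Panc02-SIY NT and 616 in RT, and 14 and 10 in MC38. All 10 genes of the monocyte marker list, none of them at 0 in any group, had a higher mean in RT than NT in each line. Their summed level was 536 to 4695 CPM in Panc02-SIY NT and 2724 to 7816 in RT, and 2111 to 3217 and 3405 to 4523 in MC38. In macrophage-like barcodes alone, 33 members were higher after 12 Gy in MC38 (6.28% of 10311 genes were called higher) with a median log2 fold change of 0.60, while 4 were higher in Panc02-SIY (2.14% of genes) with a median of 0.34. The 4 were Oas3 (log2 fold change 1.29 ± 0.31 SE, edgeR adjusted p = 0.0239), Oas2 (log2 fold change 1.28 ± 0.24 SE, edgeR adjusted p = 0.00430), Mx1 (log2 fold change 1.08 ± 0.26 SE, edgeR adjusted p = 0.0270) and Parp14 (log2 fold change 0.55 ± 0.17 SE, edgeR adjusted p = 0.0744). The smallest Panc02-SIY library held 12 macrophage-like barcodes with 66773 UMIs (NT replicate 1), and without it the count was 8. It was also 8 without NT replicate 2 and 1 without NT replicate 4, and with all copies of shared barcodes it was 9, against 23 in MC38. The make-up of the macrophage-like barcodes differed as well. In Panc02-SIY clusters 6, 7, 11 and 22 gave 8, 587, 31 and 114 of them in NT and 30, 458, 84 and 53 in RT. Within macrophage-like barcodes, 10 of 10 monocyte markers in MC38 and 8 of 10 in Panc02-SIY had a higher mean in RT than NT. The part of these shifts in the counts was not tested. Whether the make-up of either class or the smaller number of barcodes moved the count from 26 to 4 was not tested.

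In Panc02-SIY monocyte-like barcodes alone, 3 of 41 members tested passed (0.219% of 6836 genes were called higher), and these were Ifit2 (log2 fold change 1.56 ± 0.27 SE, edgeR adjusted p = 0.0411), Rsad2 (log2 fold change 1.47 ± 0.29 SE, edgeR adjusted p = 0.0735) and Ifit1 (log2 fold change 1.07 ± 0.24 SE, edgeR adjusted p = 0.0725). No member passed by edgeR when all copies of shared barcodes were kept. There 10 of 40 members had an unadjusted edgeR p below 0.05, against 418 of all 4736 genes. None passed without NT replicate 3 either, and 1 passed without NT replicate 1, 2 or 4 or RT replicate 1. The summed level of the 43 members in those barcodes was 4807, 5909, 5839 and 6715 CPM in the NT libraries and 8604, 7325, 6464 and 9735 in the RT libraries. In macrophage-like barcodes it was 2082, 3035, 3109.6 and 2696 NT and 3780.1, 3089.6, 3187 and 3961 RT in Panc02-SIY, and 5839, 6657, 7301 and 5961 NT and 10209.5, 10626, 8713 and 9235 RT in MC38. In Panc02-SIY monocyte-like barcodes thus exceeded macrophage-like barcodes in every library. Without TMM scaling the macrophage-like ranges of MC38 NT and RT lay apart. Those of Panc02-SIY overlapped narrowly, with 3109.6 CPM in the highest NT and 3089.6 in the lowest RT library. TMM scaling was not applied to these sums and can move an overlap this small.

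Without Panc02-SIY NT replicate 4 the count in Panc02-SIY monocyte/macrophage-like sums was 4 rather than 26, and without NT replicate 2 or RT replicate 1 it was 16. A fit to these 2 groups only called 2. In MC38 the count was 10 rather than 30 when all copies of shared barcodes were kept, and 20 to 29 when any 1 library of the 2 groups was left out.

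**Figure D3:**
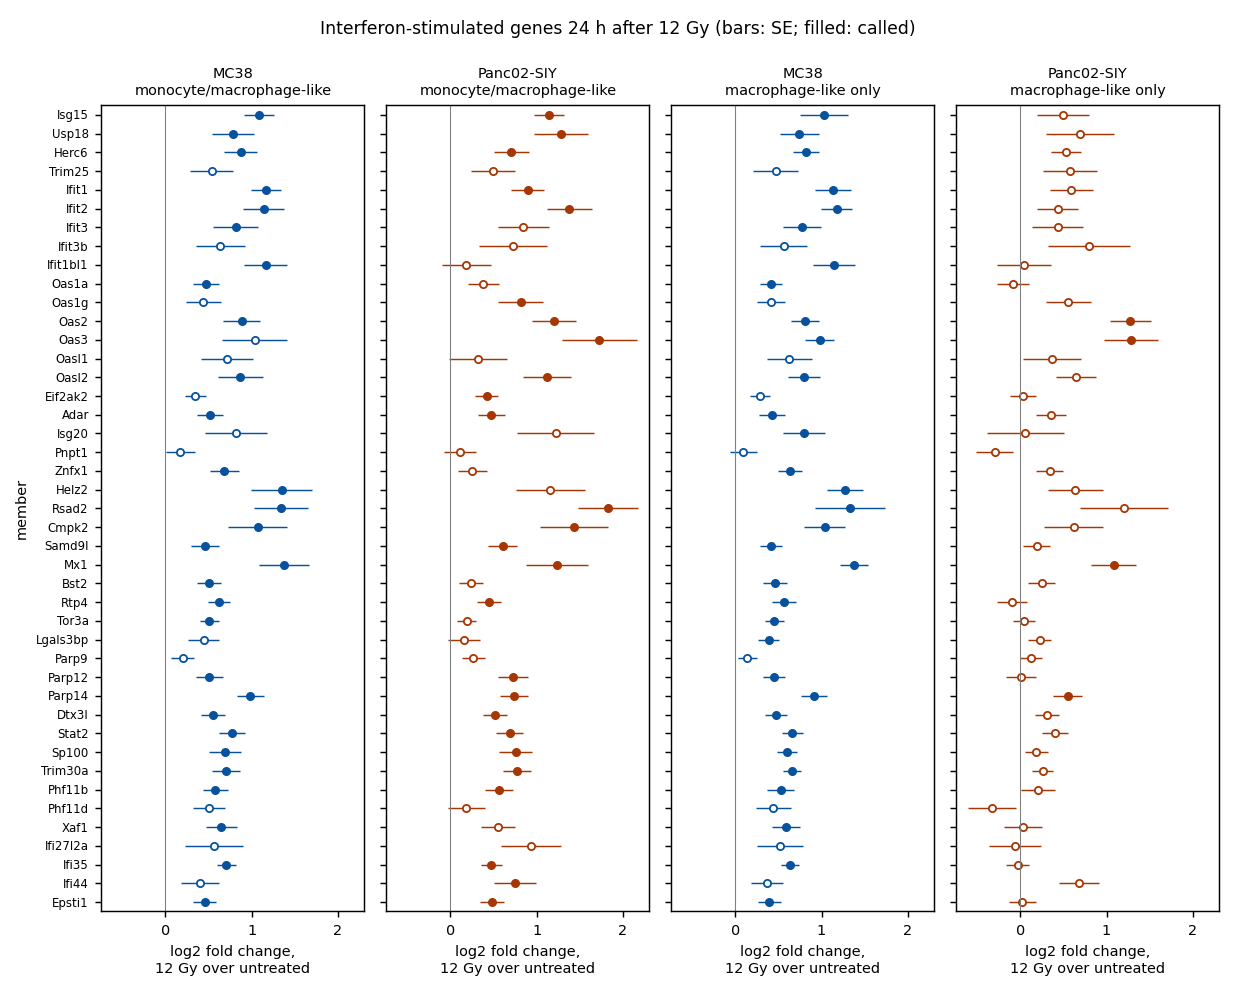
log2 fold change (RT over NT) ± SE of the 43 members in monocyte/macrophage-like sums (first pair of panels, MC38 then Panc02-SIY) and in macrophage-like barcodes alone (second pair), grouped by role, with filled points passing the test. The filled points number 30 and 26 in the first pair and 33 and 4 in the second.

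In T cell-like sums 35 members had enough counts to be tested. None passed in MC38 by edgeR or DESeq2, where 0.617% of 7785 genes were called higher. An unadjusted edgeR p below 0.05 was found for 3 members, against 1030 of all 7785 genes. Each library held only 11 to 41 T cell-like barcodes. Oasl2, with the smallest p, stood at 15.8, 0, 30.9 and 13.9 CPM NT and 66.0, 39.8, 57.9 and 60.6 RT (log2 fold change 1.87 ± 0.65 SE, edgeR adjusted p = 0.187). The RT libraries were all above the NT libraries, but the NT values rest on 0 to 4 UMIs per library. Bst2 (0.73 ± 0.34, 0.367) and Dtx3l (0.71 ± 0.34, 0.371; log2 fold change ± SE and edgeR adjusted p) came next.

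In Panc02-SIY T cell-like sums 6 members rose, where 2.31% of genes were called higher. The make-up of this class also differed between the groups. Of 3208 NT and 2410 RT barcodes, cluster 10, whose leading genes include Mki67, gave 392 and 172. Cluster 12, led by Cd8b1, gave 439 and 92. The part of this shift in the result was not tested. Mx1 had the largest change, from 5.72 ± 1.89 to 19.1 ± 2.38 CPM (log2 fold change 1.86 ± 0.33 SE, edgeR adjusted p = 0.00231). Rsad2 went from 4.35, 12.1, 4.11 and 2.10 to 9.41, 13.9, 15.7 and 17.8 CPM (log2 fold change 1.40 ± 0.37 SE, edgeR adjusted p = 0.0523), with 1 NT library inside the RT range. Oasl2 went from 7.97, 6.03, 6.65 and 2.16 to 18.8, 12.9, 10.4 and 7.09 (log2 fold change 1.11 ± 0.35 SE, edgeR adjusted p = 0.0916), and the lowest RT library lay below the highest NT library. Oas3 (log2 fold change 1.35 ± 0.38 SE, edgeR adjusted p = 0.0809), Usp18 (log2 fold change 1.10 ± 0.31 SE, edgeR adjusted p = 0.0595) and Stat2 (log2 fold change 0.58 ± 0.18 SE, edgeR adjusted p = 0.0928) were the others. Stat2 stood at 40.9, 23.1, 28.0 and 24.1 CPM NT and 48.8, 39.3, 40.1 and 42.8 RT, which overlap by 1 NT library. Isg15 did not pass, at 83.7, 75.7, 49.1 and 67.1 NT and 84.7, 109.5, 90.9 and 129 RT, although every RT library was higher. Ifit3 stood at 18.5, 9.18, 8.22 and 5.03 and 15.4, 21.1, 16.9 and 16.1, and Bst2 at 96.0, 89.2, 80.8 and 96.8 and 139, 118, 92.3 and 133, and neither passed. The count of 6 fell to 1 without NT replicate 2, 3 or 4 or RT replicate 1, 2 or 3, and to 3 without RT replicate 4.

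In cDC-like sums all 43 members were tested, over 3 MC38 NT and 2 MC38 RT libraries and 4 of each Panc02-SIY group. By edgeR none passed in MC38, where 0.0439% of 6828 genes were called higher, and by DESeq2 1 passed. An unadjusted edgeR p below 0.05 was found for 5 members, against 368 of all 6828 genes. The members' median log2 fold change was 0.48, and Ifit1 (2.44 ± 0.51, 0.225), Cmpk2 (2.85 ± 0.89, 0.820) and Oasl1 (1.38 ± 0.55, 0.868; log2 fold change ± SE and edgeR adjusted p) had the smallest p. In Panc02-SIY 2 passed, where 0.527% of genes were called higher, and the median was 0.76. Cmpk2 rose from 5.60 ± 5.00 to 31.1 ± 20.6 CPM (log2 fold change 2.40 ± 0.56 SE, edgeR adjusted p = 0.0855) and Parp14 from 77.2 ± 24.1 to 175 ± 55.6 (log2 fold change 1.18 ± 0.27 SE, edgeR adjusted p = 0.0793). The 2 calls were lost without NT replicate 2 or 4 or RT replicate 1, 3 or 4, and without RT replicate 2 only Cmpk2 was left, while 9 and 8 members passed without NT replicate 1 or 3.

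Isg15 stood at 689.7, 674 and 281 CPM in the MC38 NT cDC-like sums and at 886 and 1345 in RT, without overlap. In Panc02-SIY it was at 153, 153, 312 and 123 NT and 511, 324, 217 and 552 RT, where the third NT library reached into the RT range. Rsad2 had 158, 8.48, 38.4 and 12.0 CPM in Panc02-SIY NT and 36.5, 56.9, 68.1 and 52.2 in RT, and the first NT library was above all RT libraries. Oasl2 separated the Panc02-SIY groups, with 66.2, 27.1, 84.8 and 16.9 NT and 248, 96.3, 99.5 and 108 RT, yet did not pass (log2 fold change 1.51 ± 0.45 SE, edgeR adjusted p = 0.197). Ifit3 was at 25.5, 13.6, 43.2 and 5.65 and 69.4, 30.6, 27.9 and 35.7, Stat2 at 89.1, 44.1, 73.6 and 57.9 and 128, 90.5, 87.3 and 134 and Bst2 at 440.5, 269.7, 512 and 317 and 278, 417, 260.2 and 377, all overlapping.

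In NK cell-like and neutrophil-like sums no member was called for radiation with shared barcodes counted once, while with all copies kept 1 was called in NK cell-like sums of each line, Mx1 in MC38 and Helz2 in Panc02-SIY. In NK cell-like sums 0 of 38 passed in MC38 (0.226% of 7534 genes called higher) and 0 in Panc02-SIY (0.557%), and in Panc02-SIY neutrophil-like sums 0 of 36 (0.0377% of 5307 genes called higher). In these comparisons 9, 6 and 6 members had an unadjusted edgeR p below 0.05, against 605, 810 and 491 of all genes tested. DESeq2 was not run. The log2 fold change was above 0 for 34 of 38, 28 of 38 and 32 of 36 members in the same order. The medians were 0.64, 0.22 and 0.25, against -0.013, 0.0075 and 0.0062 over all genes. MC38 NK cell-like libraries held 18 to 48 barcodes in NT and 21 to 79 in RT. The fit was not tested on simulated data in these classes, so the lack of calls does not show that no member changed. The summed level of the members in neutrophil-like barcodes was 9566, 12705, 15402 and 12413 CPM NT and 14211, 12573, 12334 and 19260.5 RT, which overlapped. In MC38 NK cell-like barcodes it was 2083, 2713, 2642 and 2928 NT and 3994, 4361, 3177 and 4236 RT, without overlap. In Panc02-SIY NK cell-like barcodes it was 2188, 1801, 2063 and 1690 NT and 1947, 1807, 2057 and 2775 RT, which overlapped.

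Without irradiation the members were mostly higher in MC38 than in Panc02-SIY monocyte/macrophage-like sums. Of 43, 28 were higher and 2 lower in MC38 NT than Panc02-SIY NT, where 22.4% of genes were called higher and 25.0% lower. The median log2 fold change was 0.86 against −0.012 over all genes, and 26 members had every MC38 library above every Panc02-SIY library, as had 19.6% of all genes. After 12 Gy 28 were higher and 1 lower (22.2% and 24.1% of genes), with a median of 0.70. A share of calls this large across all genes means that the lines differed widely, and the line is fixed with the tumor, its macrophage clusters and its shared barcodes, which cannot be told apart. MC38 macrophage-like barcodes lay in clusters 6 and 11 and those of Panc02-SIY mostly in clusters 7 and 22. All 13 macrophage markers had a higher mean in MC38 NT, with a summed level of 25560.0 to 28490.0 CPM against 7402 to 15941.

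The members that differed most between the untreated lines were Usp18, with 78.5 ± 24.7 CPM in MC38 and 15.7 ± 5.46 in Panc02-SIY (log2 fold change 2.55 ± 0.30 SE, edgeR adjusted p = 8.04e-06), Ifit3b, with 46.7 ± 19.2 against 9.77 ± 1.80 (log2 fold change 2.35 ± 0.36 SE, edgeR adjusted p = 0.000100), and Oas1g, with 36.4 ± 7.09 against 6.98 ± 4.85 (log2 fold change 2.08 ± 0.25 SE, edgeR adjusted p = 3.34e-06). Ifit3 and Rsad2, whose library values are given above, followed with log2 fold changes of 2.02 ± 0.29 SE (edgeR adjusted p = 6.12e-05) and 1.65 ± 0.34 (0.00137). Isg15 was higher by 1.3 ± 0.17 (1.35e-05), Bst2 by 1.51 ± 0.14 (2.43e-07) and Oasl2 by 0.86 ± 0.28 (0.0188). Stat2 was not called between the lines, with a log2 fold change of 0.07 ± 0.15 SE untreated and 0.15 ± 0.15 irradiated and edgeR adjusted p of 0.768 and 0.441.

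After 12 Gy the leading members were Ifit3b (log2 fold change 2.26 ± 0.33 SE, edgeR adjusted p = 6.66e-05), Usp18 (log2 fold change 2.05 ± 0.26 SE, edgeR adjusted p = 1.98e-05), Ifit3 (log2 fold change 1.99 ± 0.28 SE, edgeR adjusted p = 5.19e-05), Phf11d (log2 fold change 1.92 ± 0.20 SE, edgeR adjusted p = 1.59e-06), a PHD finger protein with 146 ± 35.0 CPM against 38.1 ± 9.69, and Bst2 (log2 fold change 1.78 ± 0.14 SE, edgeR adjusted p = 5.58e-08). Phf11d has a close copy, Phf11b, and their split of reads is uncertain. In the PARP group 1 member was higher, Parp12, and 1 lower, Dtx3l, in each comparison. Dtx3l stood at 73.7 ± 4.59 CPM in MC38 NT, 109 ± 15.6 in MC38 RT, 115 ± 25.9 in Panc02-SIY NT and 167 ± 13.4 in Panc02-SIY RT, and was lower in MC38 by -0.66 ± 0.14 SE on the log2 scale untreated (edgeR adjusted p = 0.000784) and -0.62 ± 0.14 irradiated (0.00123). Adar, which edits adenosine to inosine in double-stranded RNA, was the other member lower in untreated MC38 (log2 fold change -0.42 ± 0.16 SE, edgeR adjusted p = 0.0347). By role, 4 of 5 IFIT genes and 5 of 6 genes of the oligoadenylate synthetase family were higher in MC38 NT. So were 4 of 5 GTPase and membrane genes and all 4 other induced genes (Ifi27l2a, Ifi35, Ifi44 and Epsti1). The counts were 2 of 4 for ISG15 pathway genes, 5 of 9 for RNA and nucleotide enzymes and 3 of 6 for signalling and nuclear genes. Of all genes tested, 22.4% were called higher in MC38 NT. With so few genes per role, these counts by role are a description only. In macrophage-like barcodes alone 32 members were higher and 1 lower untreated (29.0% and 22.3% of genes) and 36 and 1 after 12 Gy (29.1% and 24.3%).

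**Figure D4:**
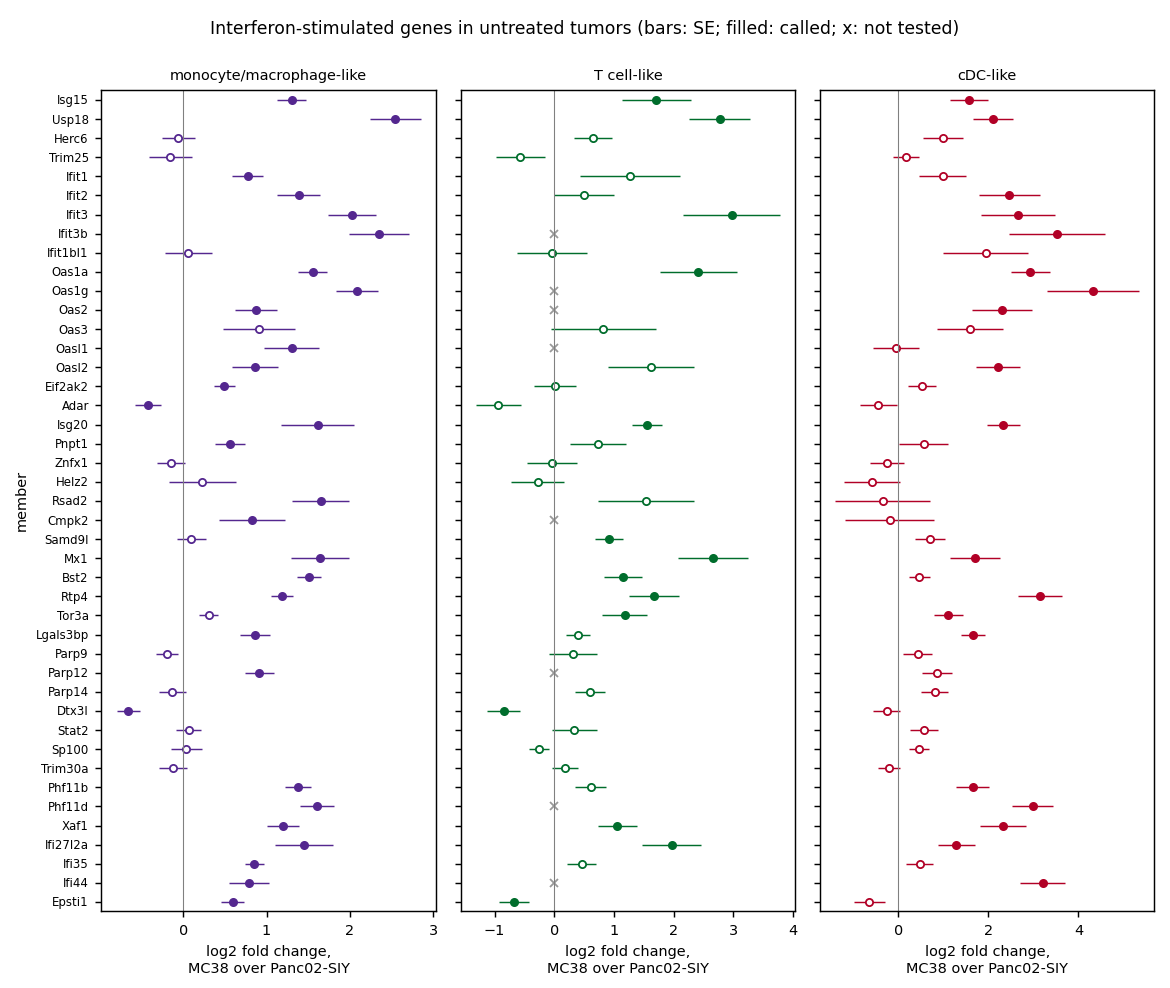
log2 fold change (MC38 over Panc02-SIY, untreated) ± SE of the members in monocyte/macrophage-like, T cell-like and cDC-like sums, grouped by role, with filled points passing the test and crosses marking members not tested. Filled points number 30, 14 and 19, and Dtx3l lies below 0 in the first 2 panels.

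In T cell-like sums more members were called higher than lower in MC38, but most passed in neither direction. Of 35 tested, 12 were higher and 2 lower in MC38 NT (7.12% and 6.80% of genes). In MC38 RT 9 were higher and 1 lower (5.81% and 7.09%). The class held different T cells in the 2 lines. Cluster 14, whose leading genes include Foxp3 and Ctla4, gave 38 of 75 barcodes in MC38 NT and 44 of 96 in MC38 RT. In Panc02-SIY it gave 172 of 3208 in NT and 218 of 2410 in RT, while cluster 0, led by Cd8a, gave 1983 and 1594. The part of this make-up in the result was not tested. Ifit3 led in NT, with 3.94, 21.1, 54.1 and 229 CPM in MC38 and 18.5, 9.18, 8.22 and 5.03 in Panc02-SIY (log2 fold change 2.97 ± 0.81 SE, edgeR adjusted p = 0.0378), where the fourth MC38 library was far above the other 3 and the first lay below the whole Panc02-SIY range. Usp18 (log2 fold change 2.77 ± 0.51 SE, edgeR adjusted p = 0.00101), Mx1 (log2 fold change 2.67 ± 0.59 SE, edgeR adjusted p = 0.00605), Oas1a (log2 fold change 2.41 ± 0.64 SE, edgeR adjusted p = 0.0183) and Ifi27l2a (log2 fold change 1.97 ± 0.49 SE, edgeR adjusted p = 0.0275), a small interferon-induced protein, followed. The 2 lower members were Dtx3l (log2 fold change -0.84 ± 0.28 SE, edgeR adjusted p = 0.0555) and Epsti1 (log2 fold change -0.67 ± 0.25 SE, edgeR adjusted p = 0.0948). In RT Oasl2 led, with 66.0, 39.8, 57.9 and 60.6 against 18.8, 12.9, 10.4 and 7.09 CPM and no overlap (log2 fold change 2.37 ± 0.47 SE, edgeR adjusted p = 0.00221), followed by Ifi27l2a (log2 fold change 2.01 ± 0.49 SE, edgeR adjusted p = 0.0257), Rtp4 (log2 fold change 1.81 ± 0.37 SE, edgeR adjusted p = 0.00355), Bst2 (log2 fold change 1.48 ± 0.30 SE, edgeR adjusted p = 0.00458) and Mx1 (log2 fold change 1.33 ± 0.47 SE, edgeR adjusted p = 0.0842), and Adar was lower (log2 fold change -1.26 ± 0.37 SE, edgeR adjusted p = 0.0343).

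The remaining library values of MC38 T cell-like sums show their spread. Isg15 was at 78.9, 31.7, 147 and 639 CPM NT and 84.9, 239, 272 and 197 RT, Bst2 at 130.1, 63.4, 193 and 409.8 and 245, 338, 313 and 417, Stat2 at 23.7, 21.1, 61.8 and 41.7 and 18.9, 39.8, 69.5 and 56.8. Rsad2 was at 7.89, 10.6, 23.2 and 27.8 and 9.43, 0, 17.4 and 15.2 and Ifit3 at 37.7, 19.9, 104 and 72.0 in RT. The NT and RT ranges overlap for each of these. Without MC38 NT replicate 4 or Panc02-SIY NT replicate 2 or 3 the NT count was 8 rather than 14, and it was 4 when every library was thinned to the lowest mean UMIs per barcode, and the RT count was 4 and 5 rather than 10 without MC38 RT replicate 3 or 4. The macrophage marker list was also higher in these MC38 sums, at 552 to 1220.3 CPM NT and 674 to 1379 RT against 162 to 399.9 and 176 to 254 in Panc02-SIY, with 12 of 13 genes higher in mean in NT and in RT and none at 0. That list reached 3.36% of its monocyte/macrophage-like level in MC38 NT T cell-like sums and 4.42% in RT. The summed members reached 66.0% and 59.1%. That sum leans on Ifi27l2a, which alone had 2145 ± 1185 CPM in MC38 T cell-like sums (mean ± SD over NT and RT libraries, without TMM scaling). The part of macrophage transcripts in the result was not tested.

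In cDC-like sums 19 members were higher in MC38 NT than Panc02-SIY NT (8.10% of genes called higher), with a median log2 fold change of 0.99, and 15 in RT (7.78%), with a median of 1.06. Oas1g led in NT (log2 fold change 4.33 ± 1.02 SE, edgeR adjusted p = 0.0132), but it rests on 21 UMIs in MC38 against 3 in Panc02-SIY, a ratio of CPM of 22.8 with a 95% exact interval of 6.80 to 119 that covers counting error only. Ifi44 (log2 fold change 3.20 ± 0.49 SE, edgeR adjusted p = 0.000511), Rtp4 (log2 fold change 3.14 ± 0.48 SE, edgeR adjusted p = 0.00106), a receptor-transporting protein, Phf11d (log2 fold change 2.99 ± 0.45 SE, edgeR adjusted p = 0.000659) and Ifit3b (log2 fold change 3.53 ± 1.07 SE, edgeR adjusted p = 0.0599) were the others with the largest change. In RT these were Ifit3b (log2 fold change 3.59 ± 0.89 SE, edgeR adjusted p = 0.0308), Ifit3 (log2 fold change 3.17 ± 0.76 SE, edgeR adjusted p = 0.0289), Ifit1 (log2 fold change 2.66 ± 0.43 SE, edgeR adjusted p = 0.00195), Phf11d (log2 fold change 2.59 ± 0.45 SE, edgeR adjusted p = 0.00226) and Isg20 (log2 fold change 2.39 ± 0.36 SE, edgeR adjusted p = 0.000629).

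Ifit3 stood at 75.4, 225 and 54.0 CPM in the MC38 NT cDC-like libraries and at 88.6 and 573 in the 2 RT libraries, which differ widely. Without MC38 RT replicate 4 the RT count was 5 rather than 15, with 1 library left in that group, which the fit then assumes to vary like the others. Rsad2 stood at 10.8, 57.5 and 28.8 and 78.8 and 306, Oasl2 at 189, 237 and 205 and 253 and 292, Stat2 at 48.5, 108 and 122 and 88.6 and 121 and Bst2 at 555, 649.7 and 385 and 814 and 818. Oasl2 in MC38 NT was above every Panc02-SIY NT library. The macrophage list summed to 714 to 1878 CPM in MC38 NT and 311 to 599 in Panc02-SIY NT cDC-like sums (12 of 13 genes higher in mean and 6 without overlap, Trem2 at 0 in Panc02-SIY NT), and the DC1 list to 449.9 to 574 and 1004 to 3269. In RT the macrophage list summed to 1040.0 to 1278 CPM in MC38 and 203 to 400.3 in Panc02-SIY (12 of 13 genes higher in mean and 10 without overlap, none at 0), and the DC1 list to 337 to 611 and 883 to 1713. The part of either in the result was not tested.

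In NK cell-like sums 7 of 38 members were higher in MC38 NT (6.11% of 7534 genes called higher) and 25 in MC38 RT (9.32%). Each library held 18 to 48 barcodes in MC38 NT and 21 to 79 in MC38 RT, against 154 to 248 and 222 to 415 in Panc02-SIY. Thinning and leaving out libraries were not done for these counts. The lines drew on different clusters. Cluster 18, with a median of 1627.5 UMIs, gave 85 of 115 barcodes in MC38 NT and 129 of 172 in MC38 RT. In Panc02-SIY it gave 27 of 774 in NT and 57 of 1331 in RT, and cluster 2, with a median of 4495 UMIs, gave 574 and 1108. In NT the largest were Ifi27l2a (log2 fold change 3.08 ± 0.47 SE, edgeR adjusted p = 0.000679) and Oasl1 (log2 fold change 2.58 ± 0.73 SE, edgeR adjusted p = 0.0194), and in RT Ifi27l2a (log2 fold change 3.24 ± 0.37 SE, edgeR adjusted p = 3.01e-05), Ifit3 (log2 fold change 3.1 ± 0.71 SE, edgeR adjusted p = 0.00621) and Mx1 (log2 fold change 3.05 ± 0.42 SE, edgeR adjusted p = 5.31e-05). The macrophage list was at 673 to 1685 CPM NT and 1182 to 1544 RT in MC38 and at 42.6 to 280.3 and 149 to 181 in Panc02-SIY. All 13 genes were higher in mean in MC38 and none was at 0. The part of the clusters or of this list in the result was not tested.

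Whether the response to 12 Gy itself differed between the lines was tested as an interaction. No member passed in any of the 3 main classes (0.0286% of genes in monocyte/macrophage-like sums, 0.00% in T cell-like and 0.00% in cDC-like sums were called in either direction), by edgeR or DESeq2. In these classes 1 of 43, 1 of 35 and 4 of 43 members had an unadjusted edgeR p below 0.05. Of all genes 649 of 10491, 436 of 7785 and 414 of 6828 had one. The interaction was above 0 for 22 of 43, 13 of 35 and 14 of 43 members, with medians of 0.015, -0.13 and -0.21. Over all genes the medians were 0.011, -0.064 and 0.0035. With all barcodes it was above 0 for 9 of 43, 10 of 35 and 8 of 42 members. The medians were then -0.19, -0.11 and -0.38, against 0.0067, -0.018 and 0.0026 over all genes. In monocyte/macrophage-like sums the smallest p was that of Ifit1bl1 (log2 fold change 0.98 ± 0.38 SE, edgeR adjusted p = 0.748), followed by Tor3a (log2 fold change 0.32 ± 0.16 SE, edgeR adjusted p = 0.802) and Znfx1 (log2 fold change 0.43 ± 0.24 SE, edgeR adjusted p = 0.844). The interaction of Isg15 was -0.06 ± 0.24 SE and that of Bst2 0.27 ± 0.19. In T cell-like sums the smallest p belonged to Usp18 (-1.47 ± 0.66), Isg20 (-0.72 ± 0.36) and Mx1 (-1.33 ± 0.69), and in cDC-like sums to Oasl1 (1.70 ± 0.69), Ifit1 (1.68 ± 0.68) and Bst2 (0.82 ± 0.36). In macrophage-like barcodes alone no member passed either (0.223% of genes called), although 9 of 43 had an unadjusted edgeR p below 0.05, against 807 of all 10311 genes. There the interaction was above 0 for 37 of 43 members, with a median of 0.32 against -0.0072 over all genes. With all barcodes it was above 0 for 30 of 43, with a median of 0.12 against 0.0031. In NK cell-like sums, where none of the 7534 genes tested was called, it was above 0 for 30 of 38 members. Their median was 0.45 against 0.0017 over all genes. The members were not tested as a set. With no member called, the counts of 33 and 4 in macrophage-like barcodes are not shown to differ by line.

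Of 32 listed genes that signal for interferon (ligands, receptors, kinases, transcription factors and suppressors), 13 had enough counts to be tested in each main class. In monocyte/macrophage-like sums 4 of the 13 rose after 12 Gy in MC38, where 6.11% of all genes were called higher, namely Irf7, a transcription factor that amplifies type I interferon, (log2 fold change 0.71 ± 0.17 SE, edgeR adjusted p = 0.0193), Irf9, another subunit of ISGF3, (log2 fold change 0.48 ± 0.15 SE, edgeR adjusted p = 0.0613), the receptor chain Ifnar1 (log2 fold change 0.41 ± 0.11 SE, edgeR adjusted p = 0.0316) and the kinase Jak2 (log2 fold change 0.87 ± 0.23 SE, edgeR adjusted p = 0.0284). In Panc02-SIY 3 rose, where 4.44% of all genes were called higher and the share of monocyte-like barcodes in the class was 20.8% in NT and 51.4% in RT, namely Irf7 (log2 fold change 0.76 ± 0.18 SE, edgeR adjusted p = 0.0290), Jak2 (log2 fold change 0.97 ± 0.24 SE, edgeR adjusted p = 0.0375) and Socs3, a suppressor of cytokine signalling, (log2 fold change 0.58 ± 0.13 SE, edgeR adjusted p = 0.0275). None passed for radiation in T cell-like or cDC-like sums of either line by edgeR. In T cell-like sums 2 of the 13 in MC38 and 2 in Panc02-SIY had an unadjusted edgeR p below 0.05, against 1030 and 1347 of all 7785 genes. In cDC-like sums 0 and 2 of the 13 had one, against 368 and 824 of all 6828 genes.

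Between the lines 5 of the 13 pathway genes were higher and 4 lower in MC38 monocyte/macrophage-like sums, the same 9 in NT and in RT. Of all genes 22.4% were called higher and 25.0% lower in NT, so that these counts are a description of the named genes and no result about the list. Irf7, Socs3, Ifnar1, Ifnar2 and Ifngr2 were higher, and Irf1, Jak1, Tyk2 and Ifng lower. Irf7 had 415 ± 65.1 CPM in MC38 NT and 129.9 ± 19.3 in Panc02-SIY NT (log2 fold change 1.70 ± 0.18 SE, edgeR adjusted p = 1.41e-06). Irf1, a transcription factor that type II interferon induces, had 160.2 ± 51.3 and 341 ± 46.8 CPM (log2 fold change -1.10 ± 0.26 SE, edgeR adjusted p = 0.00325). Ifng, mainly a product of T and NK cells, had 1.11 ± 1.06 CPM against 12.3 ± 5.44 (log2 fold change -3.73 ± 0.97 SE, edgeR adjusted p = 0.00655), and the T cell marker list in the same sums was at 17.5 to 31.8 against 406 to 781 CPM. In T cell-like sums Irf7, Socs3 and Socs1 were higher and Jak1 lower in MC38 NT (7.12% and 6.80% of all genes). In cDC-like sums Irf7, Socs3, Ifnar2, Ifngr1 and Ifngr2 were higher and Jak1 and Ifng lower in MC38 NT (8.10% and 7.16% of all genes). The cDC-like Ifng call rests on 0 UMIs in the 3 MC38 NT libraries against 64 in Panc02-SIY NT (6.40 to 71.3 CPM by library). The part of T cell transcripts in it was not tested.

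**Figure D5:**
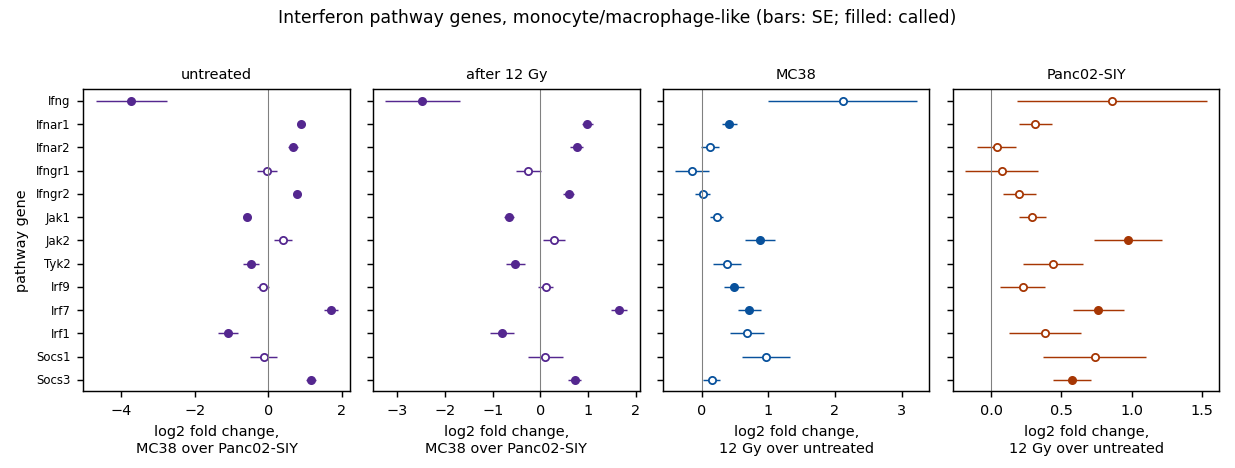
log2 fold change ± SE of the 13 tested pathway genes in monocyte/macrophage-like sums, in 4 panels (MC38 over Panc02-SIY in NT and in RT, then RT over NT in MC38 and in Panc02-SIY), with filled points passing the test. Filled points number 9, 9, 4 and 3, and Irf1 lies below 0 and Irf7 above 0 in both panels that compare the lines.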

How the data were processed

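Live CD45+ cells of MC38 and Panc02-SIY tumors were profiled in 16 libraries. The deposited values are raw UMI counts per gene and barcode, which the authors made with Cell Ranger 3.1.0 (after bcl2fastq 2.20.0, on mm10, per the submitters' processing notes). Alignment, UMI counting and cell calling are theirs, and the annotation release is not given in the sources used here. An aggregated matrix of all libraries and the files that describe it were not used. Promoter sequences came from a RefSeq table of GRCm38.p6, the same major build.

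A barcode sequence found in several libraries of a tumor line was kept only where it had the most UMIs. Barcodes were clustered with scanpy 1.11.5 and leidenalg 0.10.2 (2000 variable genes without members or pathway genes, 30 components, 20 neighbors, resolution 1), giving 29 clusters. A cluster took the name of a class, with "-like", if 3 or more of that class's markers exceeded the mean of the clusters by a log2 difference over 1 (pseudocount 20 CPM). The further demand that at least 0.4 of a class's markers be raised was set after the clusters were seen. Clusters with few UMIs and no leading marker stayed unnamed. Among them was cluster 1, with 1982 barcodes and 9 of 13 macrophage markers raised. It held 14 barcodes in MC38 NT, 10 in MC38 RT, 1342 in Panc02-SIY NT and 616 in Panc02-SIY RT, and the macrophage-like class lacks them. Clusters with too few raised markers also stayed unnamed, and so did those whose 10 leading genes held more markers of another class. This last rule left out cluster 4, with 1473 barcodes and 9 of 12 T cell markers raised. Of these, 692 were in Panc02-SIY NT and 743 in Panc02-SIY RT, and the T cell-like class lacks them. Doublets were kept in the main result, and the 917 barcodes with the highest Scrublet scores were removed in an alternative.

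UMIs were summed per library and class (libraries with at least 10 barcodes) and fitted over all 4 groups in R 4.3.3 with edgeR 4.0.16 (TMM, filterByExpr, robust quasi-likelihood F test). A gene was called if it changed by over 1.3-fold with an adjusted p (Benjamini-Hochberg over all genes tested) under 0.1, the thresholds of the study's methods. The fit was tested on simulated data for MC38 RT against MC38 NT only. Of genes given a true log2 change of 1, 66.2% were called in monocyte/macrophage-like sums. In T cell-like sums 27.4% of such genes were called, and in cDC-like sums 13.9%. Of genes given no change, 0.129%, 0.164% and 0.238% were called in these classes. DESeq2 1.42.0 was an alternative, and the others are named with their effect in the closing section. Replicate numbers of the titles were not taken to pair the libraries.

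The members, the pathway list and the markers were chosen with earlier results of these data known, and 1 pathway gene is not reported here. Named with full statistics were the 5 members with the largest change among those called in a main comparison and class (where none was called, the 3 with the smallest p), 6 members given in every library, pathway genes, and members called in macrophage-like, monocyte-like or NK cell-like sums, where those shown were chosen after their values were seen. Intervals cover counting error only.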

Additional observations from a re-analysis of the deposited data

Results flagged for a closer look

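A library was marked where its value lay so far from the other 3 of its group that the gap took up most of the group's range. The 6 members given in every library and those named for their change were examined in groups of 4 libraries, 164 in all, and 13 were marked. Chance marks about 1 in 20 such groups.

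Of the 13, 6 belong to the first Panc02-SIY RT library, and in each it was the highest. In monocyte/macrophage-like sums it had 297 CPM of Oasl2 (143 to 160 in the other 3), 106 CPM of Oas3 (50.6 to 57.8), 61.8 CPM of Helz2 (25.0 to 30.2) and 47.8 CPM of Usp18 (28.5 to 30.4). In cDC-like sums it had 248 CPM of Oasl2 (96.3 to 108) and 76.7 CPM of Rtp4 (41.6 to 42.8). Without this library the count of members called in Panc02-SIY monocyte/macrophage-like sums was 16 rather than 26.

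The third Panc02-SIY NT library was highest for Cmpk2 in monocyte/macrophage-like sums (22.4 CPM against 11.2 to 12.8) and for Isg15 in cDC-like sums (312 against 123 to 153), and the first was highest for Oas1g in cDC-like sums (5.09 against 0 to 0.706). The second MC38 NT library was highest for Tor3a in monocyte/macrophage-like sums (106 against 92.7 to 94.7), and the third for Oas1a in T cell-like sums (69.5 against 10.6 to 15.8). The lowest values were Stat2 in the fourth MC38 RT library in monocyte/macrophage-like sums (100 against 119 to 121) and Dtx3l in the third Panc02-SIY RT library in T cell-like sums (150 against 156 to 157).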

How the results depend on the processing

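The small number of MC38 T cell-like barcodes (11 to 41 per library) and cDC-like libraries (3 NT and 2 RT) limits the results of these classes. In simulated data a true log2 change of 1 between MC38 RT and NT was mostly missed in both classes. That no member passed there thus does not show that none changed. The sharing of MC38 barcodes limits every MC38 value, and class names were rebuilt from markers. Of 879 recomputed values for 47 results of named members, 786 kept their direction and their side of the threshold. Another 93 kept their direction but missed it, and 0 reversed. These members had the largest change among those called, so a reversal was unlikely from the start. A member no longer tested under an alternative is not among the 879. Where a count moved, the cause was not tested.

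Counts of members called in the 3 main classes that moved by more than 1.5 times follow, with the main count first. In monocyte/macrophage-like sums, MC38 RT against NT gave 30 and 10 with all barcodes as deposited. Panc02-SIY RT against NT gave 26, and 15 at an adjusted p below 0.05, 2 with only the 2 groups compared and 4 in macrophage-like barcodes only, and 4 to 32 when 1 library was left out. In T cell-like sums, Panc02-SIY RT against NT gave 6, and 1 at an adjusted p below 0.05, 10 with only the 2 groups compared and 1 to 7 with 1 library left out. MC38 RT against NT gave 0, and 2 without the filter on low counts and 0 to 1 with 1 library left out. MC38 against Panc02-SIY gave 14 in NT, and 9 with only the 2 groups compared, 4 when thinned and 8 to 16 with 1 library left out, and gave 10 in RT, and 6 when thinned and 4 to 10 with 1 library left out. In cDC-like sums, Panc02-SIY RT against NT gave 2, and 0 at an adjusted p below 0.05, with only the 2 groups compared, with barcodes of under 500 genes or over 10% mitochondrial UMIs removed and when clustered on all genes, 1 when thinned, 4 with all barcodes or with Zbtb46-positive barcodes, 6 with DESeq2, 19 without the filter, and 0 to 9 with 1 library left out. MC38 RT against NT gave 0, and 1 with DESeq2 and 5 without the filter. MC38 against Panc02-SIY gave 19 in NT and 10 when thinned, and gave 15 in RT, and 23 with all barcodes or without the filter and 5 to 20 with 1 library left out. The interaction gave 0, and 1 without the filter. In these classes RLE scaling and the removal of doublets moved no count by that much. Added after the data were seen, the radiation counts of the other classes were recomputed. In macrophage-like barcodes Panc02-SIY gave 4, and 9 with all barcodes and 1 to 8 with 1 library left out, while MC38 gave 33, and 23 with all barcodes and 25 to 33. In monocyte-like barcodes Panc02-SIY gave 3, and 0 with all barcodes and 0 to 3 with 1 library left out. In NK cell-like sums each line gave 0, and 1 with all barcodes, and neutrophil-like sums gave 0 either way.

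As a paired alternative the replicate number was fitted as a replicate block. Not every same-numbered pair of libraries deviated together (correlations of deviations from −0.214 to 0.644, above 0.1 in 6 of 24, 4 of 24 and 3 of 16 pairs in monocyte/macrophage-like, T cell-like and cDC-like sums), so the number was not taken to pair them. Between Panc02-SIY NT and RT the correlation was above 0.1 in 2, 3 and 2 of 4 pairs (up to 0.629, 0.644 and 0.288), and in each class 4 of the 8 libraries correlated best with the library of their own number. In MC38 0 of 8 did in monocyte/macrophage-like and 4 of 8 in T cell-like sums. With the replicate block MC38 RT against NT gave 1 rather than 0 members in T cell-like sums and Panc02-SIY RT against NT 5 rather than 2 in cDC-like sums, and no other count moved by more than 1.5 times.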

Other observations

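The ligands themselves were nearly absent from the counts. Of 19 listed type I and type III interferon genes, all of which have a row, 14 had 0 UMIs over all kept barcodes and 17 had 3 or fewer, and together they held 35 UMIs. Ifnb1, which encodes interferon beta, had 11 UMIs in MC38 NT, all in macrophage-like barcodes, 1 in MC38 RT, 0 in Panc02-SIY NT and 12 in Panc02-SIY RT, of which 1 was in macrophage-like and 1 in neutrophil-like barcodes. These counts are too few for a comparison.

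Ifng, the type II ligand, was found mainly in T cell-like and NK cell-like sums (CPM without TMM scaling, n = 4 libraries). In T cell-like sums it stood at 598 ± 675 CPM in MC38 NT, 1101 ± 358 in MC38 RT, 490.1 ± 89.1 in Panc02-SIY NT and 628 ± 228 in Panc02-SIY RT. In NK cell-like sums it stood at 179 ± 119, 538 ± 255, 249.9 ± 64.5 and 367 ± 128. In monocyte-like barcodes of Panc02-SIY it stood at 9.31 ± 8.80 NT and 9.83 ± 6.78 RT.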
